A study of Homo sapiens with 36 samples.

Results

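A set of 10 genes was selected on measured log2 fold changes, because their mRNA differed between FBXW7 knockout (KO) cells that received the degrader #11 with oxaliplatin (OXPT) and KO cells that received control esiRNA (esiCT) with OXPT. They were RPS6KA2, GNG7, PADI3, PPM1H, GNAZ, PACS2, PWWP3A, SH3RF2, GRPR and ACAD10, 10 of the 62757 genes listed by the deposited files. Of the 10, 9 passed the count filter that left 12356 genes for testing, and GRPR did not. They were chosen by these values, so their difference in that contrast is a description and carries no test here. No cutoff was given for the choice.

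The libraries were polyA RNA-seq of HCT-116, a human colorectal carcinoma line, either WT or FBXW7 KO. FBXW7 is the substrate-recognition subunit of a ubiquitin ligase, and no source used here states whether the KO line is 1 clone. The KO cells had been transfected for 48 h with esiCT or with esiRNA against HDAC4 (esiHDAC4), or had been given #11, a proteolysis-targeting compound directed against class IIa HDACs, together with esiCT. The dose of #11 was 1 µM in one label entry and 10 µM in another and is not settled. Each of these 3 kinds of KO cells was left untreated (solvent) or received 50 µM OXPT for the last 24 h. Of 36 libraries, 24 formed 8 groups of 3, the 6 KO groups, WT untreated and WT with OXPT. For the WT groups the title names siCT and the treatment entry names esiHDAC4, so the labels do not settle their esiRNA. A contrast of KO with WT may also be one of esiRNAs. HDAC4 levels of the WT libraries are given below. The other 12 WT libraries had label entries that conflicted and entered no comparison. Nothing in the labels says that the 3 libraries of a group came from separate experiments, so p-values measure the spread between these libraries, which may be technical.

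Oxaliplatin forms platinum adducts on DNA that obstruct transcription and replication. Class IIa HDACs, HDAC4 among them, have little deacetylase activity of their own and act as repressors by bringing corepressor complexes to transcription factors such as MEF2. The 10 genes belong to no single pathway. RPS6KA2 encodes RSK3, a serine/threonine kinase downstream of ERK. GNG7 and GNAZ encode a gamma and an alpha subunit of heterotrimeric G proteins, the latter being G alpha z of the inhibitory class, and GRPR is the G-protein-coupled receptor for gastrin-releasing peptide. PPM1H is a metal-dependent phosphatase that removes phosphate from Rab GTPases, and PACS2 is a sorting protein at contacts between the endoplasmic reticulum and mitochondria. PWWP3A, also known as MUM1 or EXPAND1, is a chromatin protein with a PWWP domain that takes part in the DNA damage response. PADI3 converts arginine to citrulline in proteins, SH3RF2 is a RING and SH3 domain protein, and ACAD10 belongs to the acyl-CoA dehydrogenases.

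The promoter windows of 3 genes that OXPT lowered and of SH3RF2, which had no called change with OXPT, are shown because they differ in base composition. Each is the 250 bases before the RefSeq transcription start on GRCh38.p14, 5′ to 3′ on the strand of the gene. Capitals mark the GC box, GGGCGG, on either strand, including where copies overlap.
GNG7, chr19:2702695-2702944, minus strand: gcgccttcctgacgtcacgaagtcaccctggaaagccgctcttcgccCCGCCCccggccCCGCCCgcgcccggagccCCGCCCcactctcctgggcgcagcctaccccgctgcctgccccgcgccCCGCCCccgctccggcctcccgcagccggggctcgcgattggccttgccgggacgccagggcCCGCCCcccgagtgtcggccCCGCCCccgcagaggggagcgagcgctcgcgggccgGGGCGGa
PACS2, chr14:105314498-105314747, plus strand: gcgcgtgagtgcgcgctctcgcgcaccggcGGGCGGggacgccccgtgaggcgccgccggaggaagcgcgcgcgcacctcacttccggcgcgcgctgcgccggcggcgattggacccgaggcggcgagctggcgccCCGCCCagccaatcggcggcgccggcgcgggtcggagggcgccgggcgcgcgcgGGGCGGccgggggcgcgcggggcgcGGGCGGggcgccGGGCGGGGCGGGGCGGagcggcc
PWWP3A, chr19:1354709-1354958, plus strand: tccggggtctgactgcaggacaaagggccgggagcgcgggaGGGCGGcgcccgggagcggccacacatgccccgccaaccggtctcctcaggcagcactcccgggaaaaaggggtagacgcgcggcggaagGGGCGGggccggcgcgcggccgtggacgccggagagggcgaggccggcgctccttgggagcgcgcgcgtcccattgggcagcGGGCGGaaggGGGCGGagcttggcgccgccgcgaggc
SH3RF2, chr5:145936328-145936577, plus strand: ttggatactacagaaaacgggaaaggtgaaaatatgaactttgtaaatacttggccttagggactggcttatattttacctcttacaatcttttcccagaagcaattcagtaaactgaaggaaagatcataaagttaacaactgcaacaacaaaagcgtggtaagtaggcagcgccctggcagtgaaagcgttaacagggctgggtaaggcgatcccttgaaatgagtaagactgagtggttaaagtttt

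The windows of GNG7 and PACS2 each held 7 GC boxes and were 81.2% and 87.2% G or C. That of PWWP3A held 4 at 77.6%, and that of SH3RF2 held none at 40.4%. The median over 35114 RefSeq windows of the same length was 58%, and 42.6% of them held a GC box. RefSeq windows were found for 8 of the 10 genes, 11 windows in all. The other windows of the 8 genes held fewer GC boxes than GNG7. The 3 of RPS6KA2 held 1, 5 and 0 and were 61.2%, 72.4% and 43.6% G or C. That of ACAD10 held 1 at 74.4%, and the second window of PWWP3A held 0 at 34.8%. Those of PPM1H, which OXPT also lowered, and of GRPR held 0 at 66% and 50.8%. A cAMP response element, TGACGTCA on either strand, was found in the GNG7 window and in none of the other 10, and 1.65% of all windows held one. An E-box, CACGTG, was found in the PPM1H window, against 6.35% of all windows. The CCAAT box, CCAAT on either strand, was in 8 of the 11 windows, against 32% of all windows. These were the 3 windows of RPS6KA2, both of PWWP3A and those of GNG7, PACS2 and ACAD10, so the windows do not stand for separate genes. The AP-1 motif TGANTCA, the TATA box TATAAA and the MEF2 motif were in none of the 11 windows, against 6.57%, 10.7% and 0.515% of all windows. Such matches are letters in these windows and do not show binding.

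Depth was 10725966 to 20527222 unstranded gene counts per library. The share of unmapped reads was highest, at 22.3%, in the third library of KO esiCT OXPT, and at most 13.8% in the other 23 grouped libraries. Forward-strand and reverse-strand counts were nearly equal in every library, with a ratio from 1.00 to 1.02, so unstranded counts were used. HDAC4, the gene that was silenced, was at 19.1 ± 5.45 CPM in untreated KO esiCT cells and 10.9 ± 3.48 CPM in KO esiHDAC4 cells (SD, n = 3), a log2 fold change of -0.82 ± 0.24 (SE) that did not pass the test (adjusted p = 0.561, edgeR quasi-likelihood test). By replicate number it was 18.4, 14 and 24.9 CPM with esiCT and 8.94, 8.8 and 14.9 CPM with esiHDAC4, lower in each. With OXPT the values were 6.28, 5.71 and 7.5 CPM with esiCT and 4.13, 3.33 and 4.19 CPM with esiHDAC4. WT libraries were at 18.8, 25.6 and 21.6 CPM untreated and 8.49, 8.44 and 10 CPM with OXPT. Each WT library was above every KO esiHDAC4 library of the same treatment, but which esiRNA the WT cells received was not tested. FBXW7 was at 16.9 ± 1.34 CPM in KO esiCT and 21.1 ± 3.60 CPM in WT cells (adjusted p = 1, edgeR), so its mRNA count did not distinguish the knockout. The epithelial markers EPCAM (215 to 360 CPM) and CDH1 (43.4 to 113 CPM) were present in all 24 libraries, whereas VIL1 was at 0 to 0.481 CPM. Of 9 markers of other cell types, 8 stayed at 1.88 CPM or below in every library. The exception was COL1A1, at 25.1 to 77.6 CPM.

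OXPT lowered the mRNA of 7 of the 9 tested genes in WT cells and of the same 7 in KO esiHDAC4 cells. The 7 were RPS6KA2, GNG7, PPM1H, GNAZ, PACS2, PWWP3A and ACAD10. Neither comparison shares a library with the contrast that selected the genes, but the choice was not neutral. Of the 692 genes called lower in WT cells, 76.4% had a positive fold change in the selecting contrast, against 48.4% of all genes. A choice of genes higher in that contrast thus favours genes that OXPT lowers, and 7 of 9 is not independent of it. A gene was called when its Benjamini-Hochberg adjusted p over all 12356 genes, from edgeR's quasi-likelihood test, was below 0.05 and its fold change was above 1.5. Over all genes tested, 5.6% were called lower in WT cells and 5.54% in KO esiHDAC4 cells. In all 7 genes every OXPT library lay below every untreated library in both comparisons, which held for 9.81% of all tested genes in WT cells and for 16.6% in KO esiHDAC4 cells. The median log2 fold change of the 9 genes was -1.12 in WT and -1.26 in KO esiHDAC4 cells, against -0.06 and 0.02 over all genes. In a fit of the 2 WT groups alone, RPS6KA2, GNG7 and PACS2 were called and the other 4 were not (adjusted p from 0.0976 to 0.197, edgeR). In bulk RNA, fewer cells of a kind and less mRNA per cell cannot be told apart. The summed level of the 9 markers of other cell types was mostly that of 1 gene, COL1A1. It was 31.8 to 45.3 CPM in WT untreated and 42.2 to 47.8 in WT OXPT libraries, and 28.8 to 44 in KO esiHDAC4 untreated and 51.5 to 67.6 in KO esiHDAC4 OXPT libraries. The summed level of the 7 epithelial markers, mostly KRT8 and KRT18, was 3585 to 6945 CPM in WT untreated and 8167 to 11817 CPM in WT OXPT libraries, and 3670 to 4595 and 6237 to 14318 CPM in KO esiHDAC4 cells. Single markers did not all move this way. Log2 fold changes with OXPT in WT and KO esiHDAC4 cells were -0.02 and -0.01 for EPCAM and -0.48 and -0.15 for CDH1. They were 1.02 and 1.29 for KRT8, 0.69 and 1.64 for KRT18 and 0.72 and 0.64 for CDX2. KRT20 and VIL1 did not pass the count filter. The part of either marker list in the change of the 7 genes was not tested.

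RPS6KA2 (ENSG00000071242.12, chromosome 6, 166409364 to 166906451, minus strand, GRCh38) spans 497 kb, longer than 99.2% of the tested genes. Its levels, in CPM (counts scaled to a common library size after TMM normalization), were 15.7, 13.5 and 9.58 in the WT untreated libraries and 2.38, 1.34 and 1.83 in the WT OXPT libraries. In KO esiHDAC4 cells they were 20.3, 13.6 and 21.0 untreated and 2.43, 1.76 and 2.30 with OXPT. The groups lay far apart in both kinds of cells, and the level with OXPT was 14.3% of the untreated mean in WT and 11.8% in KO esiHDAC4 cells. The log2 fold change was -2.80 ± 0.30 in WT cells (SE; adjusted p = 5.34e-06, edgeR) and -3.08 ± 0.30 in KO esiHDAC4 cells (adjusted p = 3.03e-06, edgeR). In the cells used for the selection, KO esiCT levels were 13, 9.43 and 16.1 untreated and 1.28, 0.867 and 1.31 with OXPT. With #11 they were 17, 18.4 and 22.5 untreated and 8.94, 5.68 and 5.93 with OXPT. RPS6KA2 was thus at 8.97% of its untreated mean after OXPT in KO esiCT cells and at 35.5% with #11. Among its relatives, the other RSK and MSK kinases, 4 were tested and 1 was called: RPS6KA1, which encodes RSK1, was higher with OXPT, by 0.96 ± 0.15 in WT (adjusted p = 0.000268, edgeR) and 0.74 ± 0.15 in KO esiHDAC4 cells (adjusted p = 0.00265, edgeR). The direction was thus opposite for 2 kinases of the same family.

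GNG7 (ENSG00000176533.13, chromosome 19, 2511219 to 2702694, minus strand), whose promoter window is the first one printed, had the largest fold change of the 10 genes in WT cells. It was at 29.8, 23.2 and 31.3 CPM in WT untreated and 3.30, 3.08 and 3.44 CPM in WT OXPT libraries. With esiHDAC4 in KO cells it was at 43.6, 34.0 and 43.0 CPM untreated and 3.04, 3.39 and 7.80 CPM with OXPT. Replicate 3 of the last group was higher than the other replicates but still far below every untreated library. The log2 fold changes were -3.10 ± 0.36 in WT (adjusted p = 1.15e-05, edgeR) and -3.09 ± 0.36 in KO esiHDAC4 cells (adjusted p = 1.09e-05, edgeR). In KO esiCT cells GNG7 was at 33.6, 29.5 and 46.8 CPM untreated and 2.11, 2.60 and 5.83 CPM with OXPT. With #11 it was at 31.9, 34.7 and 44.5 CPM untreated, which overlapped KO esiCT, and at 13.6, 12.5 and 13.4 CPM with OXPT. The level with OXPT was 9.59% of the untreated mean in KO esiCT and 35.6% in #11 cells. Of 3 other G gamma genes tested, GNG4 was called lower in WT (-1.41 ± 0.31, adjusted p = 0.00462, edgeR) and in KO esiHDAC4 cells (-1.18 ± 0.30, adjusted p = 0.0131, edgeR), and GNG5 in WT cells (-0.78 ± 0.20, adjusted p = 0.0145, edgeR).

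GNAZ (ENSG00000128266.9, chromosome 22, 23070519 to 23125032, plus strand) shares 274 exonic bases with RSPH14 on the opposite strand, and 21% of the reads that strand-specific counting gave it were left unassigned by unstranded counting. It was at 17.4, 14.0 and 13 CPM in WT untreated and 4.97, 3.22 and 6.58 CPM in WT OXPT libraries, a log2 fold change of -1.59 ± 0.40 (adjusted p = 0.0129, edgeR). In KO esiHDAC4 cells the values were 24.7, 16.7 and 28.7 CPM untreated and 4.07, 4.72 and 12.9 CPM with OXPT (-1.70 ± 0.40, adjusted p = 0.00700, edgeR). Replicate 3 of that OXPT group came closest to the untreated range, and without it the change was -2.41. The adjusted p rose to 0.0660 in WT cells without WT OXPT replicate 2 and to 0.0538 in KO esiHDAC4 cells without KO esiHDAC4 OXPT replicate 2, in fits by edgeR. With esiCT in KO cells GNAZ was at 22.3, 15.1 and 31.6 CPM untreated and 5.15, 4.41 and 9.05 CPM with OXPT. In the #11 libraries it was at 20.8, 21.0 and 26.4 CPM untreated and 19.7, 17.3 and 23.9 CPM with OXPT, and these last groups overlapped. GNAZ was at 89.3% of its untreated mean with #11 and OXPT, against 33.3% in WT cells, 30.9% with esiHDAC4 and 27% with esiCT. Of 9 other G alpha genes tested, 1 was called, GNAL in KO esiHDAC4 cells (-1.37 ± 0.37, adjusted p = 0.0177, edgeR). Of 4 G beta genes, none was called by edgeR or DESeq2 in either OXPT comparison, and 1 in WT and 2 in KO esiHDAC4 cells had an unadjusted p below 0.05.

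PPM1H (ENSG00000111110.12, chromosome 12, 62643994 to 62935150, minus strand) was at 7.94, 11.4 and 6.32 CPM in WT untreated and 3.46, 3.68 and 4.83 CPM in WT OXPT libraries. The groups did not overlap, but the log2 fold change of -1.11 ± 0.32 had an adjusted p of 0.0276 (edgeR), which rose to 0.0921, 0.0869 and 0.136 without WT OXPT replicate 1, WT OXPT replicate 2 and WT untreated replicate 2. With esiHDAC4 in KO cells PPM1H was at 14.5, 16.6 and 16.4 CPM untreated and 7.78, 5.45 and 6.57 CPM with OXPT. That change was -1.26 ± 0.31 (adjusted p = 0.0102, edgeR), and the adjusted p was 0.0583 without KO esiHDAC4 OXPT replicate 2. In KO esiCT cells the values were 9.70, 7.51 and 19.5 CPM untreated and 3.83, 4.55 and 2.62 CPM with OXPT. With #11 they were 16.4, 16.1 and 14.7 CPM untreated and 12.8, 13.3 and 8.81 CPM with OXPT, or 74% of the untreated mean, against 30% in KO esiCT cells. Of 17 other phosphatases of this family, PPM1D, a p53-induced phosphatase also called WIP1, was called higher with OXPT in WT (2.03 ± 0.26, adjusted p = 3.35e-05, edgeR) and in KO esiHDAC4 cells (1.89 ± 0.26, adjusted p = 6.43e-05, edgeR). PHLPP1 was called lower in both (-1.10 ± 0.34 in WT and -1.35 ± 0.34 in KO esiHDAC4 cells, adjusted p = 0.0414 and 0.0118, edgeR). In WT cells alone PPM1A was called higher, and PPM1B and PHLPP2 were called lower.

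PACS2 (ENSG00000179364.15, chromosome 14, 105300563 to 105398147, plus strand) was at 91.0, 67.9 and 74.7 CPM in WT untreated and 19.4, 15.3 and 26.5 CPM in WT OXPT libraries, a log2 fold change of -1.93 ± 0.26 (adjusted p = 4.93e-05, edgeR). In KO esiHDAC4 cells it was at 65.4, 55.8 and 65.3 CPM untreated and 19.6, 13.9 and 29.1 CPM with OXPT (-1.58 ± 0.25, adjusted p = 0.000337, edgeR). All OXPT libraries of both kinds of cells were well below all untreated ones. With esiCT in KO cells PACS2 was at 84.7, 77.0 and 95.8 CPM untreated and 20.7, 17.9 and 31.8 CPM with OXPT. With #11 it was at 87.2, 79.7 and 99.9 CPM untreated and 59.4, 62.1 and 55.7 CPM with OXPT. The level with OXPT was thus 66.4% of the untreated mean with #11 and between 26.2% and 33.6% in the other 3 kinds of cells. Its only family member, PACS1, was called lower in KO esiHDAC4 cells (-0.70 ± 0.18, adjusted p = 0.0135, edgeR), and in WT cells it was at -0.58 ± 0.18 (adjusted p = 0.0409, edgeR), short of the fold threshold.

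PWWP3A (ENSG00000160953.17, chromosome 19, 1354711 to 1378431, plus strand) was at 50.4, 53.5 and 40.2 CPM in WT untreated and 19.1, 20.9 and 26.3 CPM in WT OXPT libraries (-1.12 ± 0.16, adjusted p = 0.000134, edgeR). With esiHDAC4 in KO cells it was at 52.3, 60.9 and 53.6 CPM untreated and 22.1, 22.3 and 28.7 CPM with OXPT (-1.19 ± 0.16, adjusted p = 7.20e-05, edgeR). The level with OXPT was 46% and 43.8% of the untreated mean. In KO esiCT cells PWWP3A was at 57.3, 61.4 and 60.3 CPM untreated and 23.6, 23.9 and 20.7 CPM with OXPT. In the #11 libraries it was at 43.2, 43.3 and 44.6 CPM untreated and 36.2, 39.6 and 39.1 CPM with OXPT. The untreated #11 libraries were thus all below the untreated KO esiCT libraries, and those with OXPT all above the KO esiCT libraries with OXPT. PWWP3A shares 1781 exonic bases with a gene of the opposite strand, ENSG00000279488, and unstranded counting left 34.2% of its strand-assigned reads unassigned. Whether those reads came from PWWP3A or from a gene opposite it cannot be told apart. None of 3 other PWWP genes tested was called by edgeR or DESeq2 in either OXPT comparison, and 0 had an unadjusted p below 0.05.

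ACAD10 (ENSG00000111271.15, chromosome 12, 111686053 to 111757107, plus strand) was at 24.6, 17.7 and 31.2 CPM in WT untreated and 13.1, 9.38 and 12.2 CPM in WT OXPT libraries (-1.08 ± 0.23, adjusted p = 0.00447, edgeR). In KO esiHDAC4 cells it was at 20.3, 17.6 and 20.1 CPM untreated and 8.51, 8.36 and 12.1 CPM with OXPT (-1.01 ± 0.23, adjusted p = 0.00698, edgeR). The fall was to 47.2% and 49.9% of the untreated mean. With esiCT in KO cells ACAD10 was at 20.5, 19.0 and 28.9 CPM untreated and 9.56, 9.97 and 13.5 CPM with OXPT. With #11 it was at 27.7, 31.4 and 31.9 CPM untreated and 22.6, 22.1 and 19.9 CPM with OXPT. These last values overlapped the untreated KO esiCT range. Of 8 other acyl-CoA dehydrogenases, none was called by edgeR in either OXPT comparison, 2 had an unadjusted p below 0.05 in each, and DESeq2 called 1 in WT and 0 in KO esiHDAC4 cells.

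PADI3 and SH3RF2 had no called change with OXPT. PADI3 (ENSG00000142619.4, chromosome 1, 17249098 to 17284233, plus strand) was at 4.25, 1.53 and 2.27 CPM in WT untreated and 5.68, 2.48 and 3.22 CPM in WT OXPT libraries (0.51 ± 0.48, 95% interval -0.48 to 1.51, adjusted p = 0.559, edgeR). With esiHDAC4 in KO cells it was at 5.04, 1.96 and 4.89 CPM untreated and 3.52, 2.12 and 4.03 CPM with OXPT (-0.30 ± 0.47, interval -1.28 to 0.68, adjusted p = 0.746, edgeR). The groups overlapped in both comparisons, and replicate 2 was the lowest of 3 in the 4 KO groups without #11. KO esiCT levels were 3.48, 1.24 and 5.01 CPM untreated and 2.99, 1.73 and 2.98 CPM with OXPT. With #11 they were 6.96, 7.36 and 11.9 CPM untreated and 14.1, 15.2 and 17.4 CPM with OXPT. All 6 #11 libraries were above the 18 other grouped libraries, but 3 of the 6 belong to the selecting contrast. The share of all genes apart in this way was not computed. In the libraries titled WT PROTAC11, whose label entries conflict, PADI3 was between 1.5 and 3.56 CPM, scaled over all 36 libraries. It was between 1.54 and 6.57 CPM in those titled WT PROTAC11 OXPT. The other PADI gene tested, PADI2, was at -0.67 ± 0.41 in WT and -0.85 ± 0.41 in KO esiHDAC4 cells and was not called in either (adjusted p = 0.344 and 0.197, edgeR).

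SH3RF2 (ENSG00000156463.18, chromosome 5, 145936578 to 146081791, plus strand) was at 12.4, 14.9 and 15.0 CPM in WT untreated and 15.8, 18.8 and 9.43 CPM in WT OXPT libraries (0.06 ± 0.30, 95% interval -0.58 to 0.69, adjusted p = 0.940, edgeR). In KO esiHDAC4 cells it was at 12.9, 13.1 and 10.1 CPM untreated and 10.1, 12.2 and 9.28 CPM with OXPT (-0.19 ± 0.30, interval -0.82 to 0.44, adjusted p = 0.749, edgeR). In KO esiCT cells it was at 13.8, 15.9 and 10.1 CPM untreated and 11.6, 18.9 and 7.62 CPM with OXPT. In the #11 libraries it was at 6.14, 7.69 and 4.95 CPM untreated and 4.39, 4.19 and 2.80 CPM with OXPT. Replicate 3 of KO esiCT OXPT, the library with most unmapped reads, lay just under the highest untreated #11 library, so the ranges of those groups touched. All #11 libraries with OXPT were below every KO library without #11. They belong to the selecting contrast, and the share of all genes apart in this way was not computed. SH3RF1, the other gene of its family that was tested, was not called in either OXPT comparison (adjusted p = 0.392 and 0.131, edgeR).

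GRPR (ENSG00000126010.6, chromosome X, 16123565 to 16153518, plus strand) had 0 to 34 unstranded counts per library and its highest group mean was 20, below the minimum of 64. It shares 426 exonic bases, 17.6% of its exons, with a lncRNA on the opposite strand, ENSG00000238178. Unstranded counting kept 259 of the 1818 reads that the strand columns together gave GRPR, and left out the other 85.8%. Since these reads carry no usable strand, those in the shared bases cannot be told apart between GRPR and the lncRNA, and the values that follow apply to both. In reverse-strand counts GRPR was at 1.53, 1.79 and 2.89 CPM in WT untreated and 6.44, 9.68 and 6.52 CPM in WT OXPT libraries. With esiHDAC4 in KO cells it was at 1.20, 1.49 and 1.32 CPM untreated and 4.38, 12.8 and 4.96 CPM with OXPT. It was called higher with OXPT in both, by 1.88 ± 0.44 in WT (adjusted p = 0.00856, edgeR, 12315 genes tested) and by 2.46 ± 0.45 in KO esiHDAC4 cells (adjusted p = 0.00110, edgeR). Without KO esiHDAC4 OXPT replicate 2, its highest library, the latter was 1.79 (adjusted p = 0.0139, edgeR). In those reverse-strand fits 4.21% and 4.96% of all genes were called higher. GRPR passed the count filter of these fits only through OXPT groups, since no untreated library reached 64 reverse-strand counts. Those counts were 11 to 19 in WT untreated and 53 to 85 in WT OXPT libraries, and 10 to 15 and 36 to 124 in KO esiHDAC4 cells. The filter thus favoured a gene higher with OXPT, and the 2 calls are not independent of it. In unstranded counts without a filter the change in WT cells was 0.44 and not called (adjusted p = 0.830, edgeR), and that in KO esiHDAC4 cells was 2.56 (adjusted p = 0.00254, edgeR). With esiCT in KO cells the reverse-strand level was 1.09, 1.85 and 2.38 CPM untreated and 6.95, 15.4 and 13.1 CPM with OXPT. With #11 it was 0.768, 1.23 and 1.89 CPM untreated and 2.75, 2.38 and 2.46 CPM with OXPT. In reverse-strand counts, which do not separate GRPR from the lncRNA, the direction with OXPT was opposite to that of the 7 lowered genes in both tested comparisons. Unstranded counts of GRPR, without the shared reads, were 7 to 14 in WT untreated and 6 to 29 in WT OXPT libraries. Those of the lncRNA were 5 to 31 and 41 to 82. In KO esiHDAC4 cells they were 2 to 5 untreated and 9 to 34 with OXPT for GRPR, and 10 to 19 and 41 to 116 for the lncRNA.

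**Figure D1:**
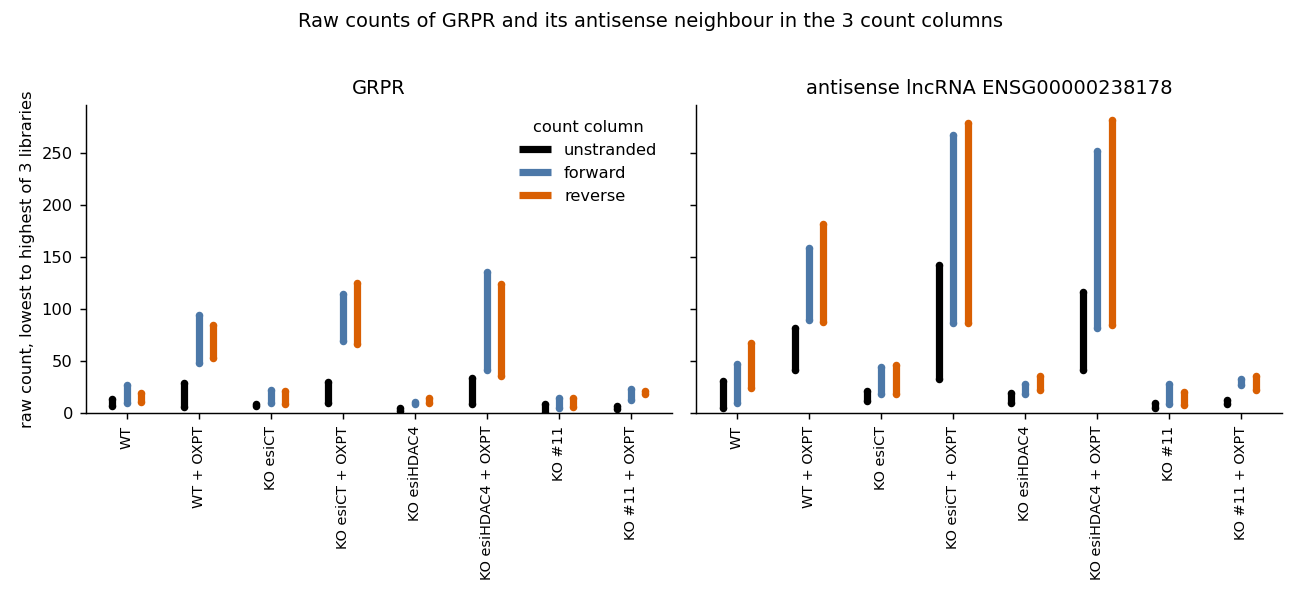
Raw counts (vertical axis, from 0) of GRPR and of the lncRNA that overlaps it on the opposite strand, by group; each bar runs from the lowest to the highest of 3 libraries, in the unstranded, forward-strand and reverse-strand columns. GRPR has at most 34 unstranded counts, and its strand columns move with those of the lncRNA, with the higher values in the OXPT groups without #11.

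Without OXPT, neither #11 nor HDAC4 silencing gave a called change in any of the 9 tested genes. Replicate numbers paired the libraries of the silencing comparison but not the #11 libraries with those of KO esiCT. A difference in handling of the #11 libraries and #11 itself cannot be told apart. With #11 in untreated KO cells, 0.51% of all genes were called, and by edgeR none of the 9, although 4 had an unadjusted p below 0.05 and DESeq2 called 1, SH3RF2. PADI3 was 1.43 ± 0.47 higher with #11 (95% interval 0.45 to 2.41, adjusted p = 0.153, edgeR), and all 3 #11 libraries were above the 3 KO esiCT libraries. SH3RF2 was at -1.08 ± 0.31 (interval -1.72 to -0.43, adjusted p = 0.107, edgeR), with all 3 #11 libraries below the KO esiCT libraries. Its adjusted p was 0.0287 by DESeq2 and 0.0499 in an edgeR fit of these 2 groups alone. RPS6KA2 was at 0.59 ± 0.27 (adjusted p = 0.351, edgeR) and PWWP3A at -0.45 ± 0.16 (adjusted p = 0.190, edgeR), again without overlap of the groups. Over all genes 17.2% were apart and higher and 14.8% apart and lower in this comparison, so 4 of 9 was near the background. The intervals of GNG7 (-0.66 to 0.69), GNAZ (-0.81 to 0.78) and PACS2 (-0.46 to 0.56) were centred near 0. The untreated values of SH3RF2, PADI3 and RPS6KA2 had the same sign as the difference under OXPT that selected them, and that of PWWP3A had the opposite sign.

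HDAC4 silencing in untreated KO cells gave no call in the 9 genes by edgeR or DESeq2, with 0 unadjusted p below 0.05, and 0.00809% of all genes, 1 gene, was called. With the replicate number as a block 4 genes were called, none of the 9 among them. A fit of the 2 groups of this comparison with the block called 565 genes, also none of the 9. Over all alternative fits the lowest adjusted p was 0.0193 for PACS2 and 0.0288 for RPS6KA2 (edgeR), with fold changes short of the threshold. In the fit of all 24 libraries the log2 fold changes of the 9 genes lay between -0.47 (PACS2) and 0.51 (RPS6KA2). PACS2 was below the KO esiCT range in all 3 libraries (adjusted p = 1, edgeR), as were 12.1% of all genes. Untreated KO esiCT cells against untreated WT cells likewise gave no call in the 9 genes by edgeR or DESeq2, with 0 unadjusted p below 0.05, where 0.291% of all genes were called, and the fold changes lay between -0.10 (ACAD10) and 0.63 (GNAZ). With the replicate number as a block, 75 genes in place of 36 were called, none of them among the 9. These 3 untreated comparisons share the KO esiCT untreated libraries, silencing shares the KO esiHDAC4 untreated and KO against WT the WT untreated libraries with an OXPT comparison, and such values are not independent.

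The contrast that selected the genes, KO #11 OXPT against KO esiCT OXPT, is given as description. Over all genes 0.121%, or 15 genes, passed the call rule in it, and 1 did without KO esiCT OXPT replicate 1, 1 without replicate 2, 5 without replicate 3 and 0 in a fit of the 2 groups. Nothing is read from these calls for the 10 genes. Replicate numbers did not pair the libraries of this contrast either, and a difference in handling between its groups and #11 itself cannot be told apart. The log2 fold change was 2.60 ± 0.49 for PADI3, 2.57 ± 0.32 for RPS6KA2, 1.95 ± 0.35 for GNG7, 1.73 ± 0.40 for GNAZ, 1.65 ± 0.32 for PPM1H, 1.34 ± 0.25 for PACS2, 0.97 ± 0.23 for ACAD10 and 0.75 ± 0.16 for PWWP3A. It was -1.74 ± 0.32 for SH3RF2 and, in reverse-strand counts, -2.21 ± 0.43 for GRPR. The groups did not overlap in any of the 10, which the selection favours, against 9.46% of all genes apart and higher and 4.89% apart and lower. Without KO esiCT OXPT replicate 3, which stood apart, the values were 2.46 for GNG7, 2.06 for GNAZ and -2.02 for SH3RF2, and those of the other 6 tested genes lay between 0.66 (PWWP3A) and 2.67 (PADI3).

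Side by side, the OXPT log2 fold changes of the 7 lowered genes were -3.48 to -1.06 in KO esiCT cells and -1.49 to -0.16 in KO #11 cells. These 2 comparisons use the libraries of the selecting contrast, so the difference between them is not tested. GNG7 went from -3.42 ± 0.37 in KO esiCT to -1.49 ± 0.33 in KO #11 cells, RPS6KA2 from -3.48 ± 0.32 to -1.49 ± 0.28, and GNAZ from -1.91 ± 0.40 to -0.16 ± 0.38. The smallest gap was that of ACAD10, -1.06 ± 0.23 against -0.49 ± 0.23. For comparison, the 692 genes called lower with OXPT in WT cells had median log2 fold changes with OXPT of -1.14 in KO esiHDAC4 cells, -1.13 with esiCT and -0.82 with #11, and 76.4% of them had a positive fold change in the selecting contrast, against 48.4% of all genes. HDAC4 mRNA itself was at 34% of its untreated mean with OXPT in KO esiCT and at 70.9% in #11 cells. The OXPT response did not differ detectably between WT and KO esiHDAC4 cells in any of the 9 genes (edgeR, lowest unadjusted p = 0.239 for PADI3, all adjusted p = 1), with the widest 95% interval in PADI3, -0.59 to 2.22. HDAC4 silencing under OXPT, which shares the KO esiCT OXPT libraries, gave 0.91 ± 0.32 for RPS6KA2 and 0.83 ± 0.32 for PPM1H with no overlap of the groups, where 2.1% of all genes were apart and higher, and between -0.27 and 0.46 for the other 7 genes.

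**Figure D2:**
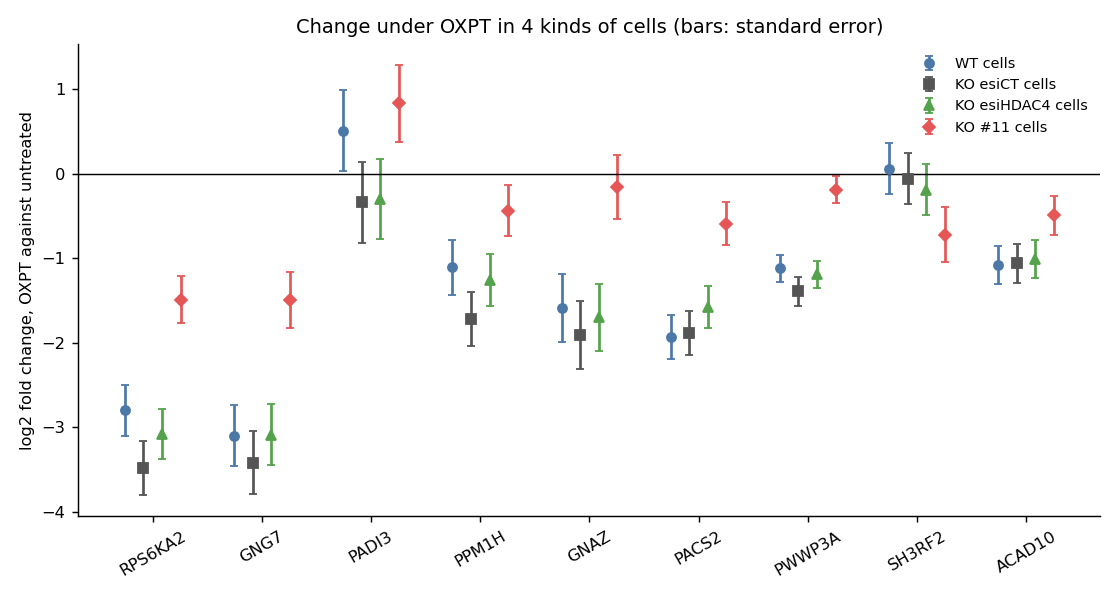
Log2 fold change with OXPT against untreated (vertical axis) of the 9 tested genes in 4 kinds of cells, with standard errors; only WT and KO esiHDAC4 are tested. The KO #11 points of the 7 lowered genes lie above those of the other cells, from -1.49 to -0.16.

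The 10 genes differed in size and level. Their median span was 84.3 kb, against 30.7 kb over all tested genes, and it ranged from 23.7 kb for PWWP3A to 497 kb for RPS6KA2. The genes called lower with OXPT had a median span of 87.3 kb in WT and 103 kb in KO esiHDAC4 cells, and those called higher 17.5 and 18.3 kb. Per kilobase of exon, untreated KO esiCT levels were highest for GNG7 (8.06 CPM per kb), followed by GNAZ (6.25), PACS2 (6.18) and PWWP3A (6.04), and among the 9 tested genes lowest for PADI3 (1.02) and RPS6KA2 (1.56). The replicate ranges of GNG7 and GNAZ overlapped on this scale, as did those of GNAZ, PACS2 and PWWP3A. Unstranded counting also left out unequal shares of the strand-assigned reads, 34.2% for PWWP3A, 21% for GNAZ, 3.12% for PACS2 and 0.0131% for GNG7. The order of these genes is thus not settled by these values.

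Over the 6 groups that the selecting contrast did not use, the gene with the nearest pattern of centred log2 CPM means was PTPRG for RPS6KA2 (root mean square difference 0.145), OTUD7A for GNG7 (0.160) and CHN1 for GNAZ (0.0828). It was PPM1L, a phosphatase of the same family, for PPM1H (0.0867), NTSR1 for PACS2 (0.105), FBXL16 for PWWP3A (0.0734) and FKBP9 for ACAD10 (0.0654). For PADI3 and SH3RF2 it was BAMBI (0.139) and INSIG2 (0.115). Of these, RPS6KA2 itself varied by 3.32 and GNG7 by 3.56 over the 6 groups on the log2 scale.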

How the data were processed

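The authors deposited raw read counts per gene, as whole numbers, for 36 libraries; the processing notes name Trimmomatic 0.39, STAR 2.7.11a and hg38, with no annotation named. The study's methods describe another route (salmon and DESeq2), so these are not the values it tested. Of the gene identifiers, 99.9% matched GENCODE 44 on GRCh38. The unstranded count column was used. Genes whose mean raw count reached 64 in 1 or more groups were tested in R 4.3.3 by edgeR 4.0.16 (TMM, quasi-likelihood test), in 1 model of the 24 libraries with 1 coefficient per group. Calls needed a Benjamini-Hochberg adjusted p below 0.05 and a fold change above 1.5; each standard error was the log2 fold change divided by the root of its F statistic. The script was tested on simulated data. Alternatives were reverse-strand counts, RLE, no filter, DESeq2 1.42.0, fits of 2 groups, a replicate block and leaving out libraries.

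The 10 genes and the gene lists were chosen with earlier results of these data known. All 10 were named, with relatives where called, and for each the nearest pattern by the smallest root mean square difference. Replicate numbers were taken to pair libraries where all 3 correlations of deviations from the group means exceeded 0.1: this held for HDAC4 silencing (0.28, 0.79 and 0.72), OXPT in WT (0.18, 0.69 and 0.62) and KO esiHDAC4 cells (0.20, 0.58 and 0.68) and KO against WT (0.11, 0.47 and 0.45). Over pairs of replicates the chi-square per degree of freedom was 8.31 to 224, so no library was a copy. Promoter sequences are from RefSeq (GRCh38.p14).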

Additional observations from a re-analysis of the deposited data

How the results depend on the processing

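Of the values of single genes under the alternatives, 1392 kept their direction and side of the threshold, 13 lost and 7 gained a call, and 46 changed sign, none with a call (lowest adjusted p = 0.682, edgeR). Counts of calls moved by over 1.5 times in 103 instances. The causes were not tested.

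The sign changed with #11 in untreated cells for GNG7 (-0.03 with reverse-strand counts, -0.05 without a filter), PACS2 (-0.01 without a filter) and GNAZ (0.04 with the block, 0.17 without number 3, 0.04 in the 2 groups with the block). It changed for SH3RF2 with OXPT in WT cells (-0.01 with the block, -0.05 in the 2 groups with the block) and, without number 3, for PADI3 (-0.25), PPM1H (-0.16) and SH3RF2 (0.13) in KO against WT. With 1 library left out, the values that crossed 0 ran for #11 in untreated cells from -0.14 to 0.23 (GNG7), -0.25 to 0.28 (GNAZ) and -0.04 to 0.14 (PACS2), and for silencing from -0.01 to 0.35 (GNG7), -0.12 to 0.75 (PADI3) and -0.22 to 0.32 (GNAZ). For KO against WT they ran from -0.20 to 0.18 (RPS6KA2), -0.18 to 0.79 (PADI3), -0.23 to 0.07 (SH3RF2) and -0.31 to 0.11 (ACAD10), and for OXPT in WT cells from -0.16 to 0.29 (SH3RF2).

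Over all genes, the number called with #11 in untreated cells was 480 without a count filter, 409 by DESeq2, 544 in a fit of the 2 groups, 397 with the replicate number as a block and 1807 without number 3 in every group. Of the 9 genes, 1 was then called without the filter (PADI3, 1.37, adjusted p = 0.0405), 1 by DESeq2 and 1 in the 2 groups (SH3RF2 in both), 2 with the block (PADI3, 1.55, adjusted p = 0.0187, and SH3RF2, adjusted p = 0.0141) and 2 without number 3 (PPM1H, 0.93, and SH3RF2). The numbers do not pair the libraries of this comparison, whose correlations were 0.11, -0.25 and -0.17, nor those of the selecting contrast (-0.23, 0.13 and -0.03).

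HDAC4 silencing gave 2 calls with reverse-strand counts, 2 with RLE, 3 without a filter, 40 by DESeq2, 0 in the 2 groups, 4 with the block and 72 without number 3. KO against WT gave 322 without a filter, 117 by DESeq2, 1 in the 2 groups and 75 with the block. The selecting contrast gave 367, 126, 0 and 132 in the same order and 1421 without number 3. OXPT in WT cells gave 86 calls in the 2 groups, 3 of the 9 genes among them, and 2588 without number 3, and OXPT in KO esiHDAC4 cells 2227 without number 3. The block changed no call of the 9 genes in the 4 comparisons whose numbers pair.

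A fit of the 2 groups with a replicate block, chosen after seeing the data, gave 565 calls for silencing, 686 for OXPT in WT, 2338 for OXPT in KO esiHDAC4, 12 for KO against WT and 0 for the selecting contrast. In it PPM1H and ACAD10 lost their call in WT cells (adjusted p = 0.101 and 0.0563). Also added after seeing the data were the reverse-strand fits of GRPR, which without a filter in unstranded counts was at 0.44 in WT cells.

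Leaving out 1 library at a time gave 0 to 340 calls for #11 in untreated cells, 0 to 3 for silencing, 830 to 2094 for OXPT in WT, 809 to 1909 for OXPT in KO esiHDAC4, 14 to 88 for KO against WT and 1 to 27 for the selecting contrast. Of the 9 genes, 5 to 7 were called with OXPT in WT, 5 to 7 with OXPT in KO esiHDAC4 cells and 0 to 0 in the other 3 tested comparisons. With 3 libraries a group, RPS6KA2 had 11 to 395 counts per library and an SE of 0.27 with #11 in untreated cells. GNG7, with 36 to 849 counts, had an SE of 0.32 there. Small changes of such genes may have gone undetected, and whether depth set this limit was not tested.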

Other observations

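The 12 WT libraries whose label entries conflict are given by title and as single values, since their treatment is not settled. CPM values were scaled over all 36 libraries. For RPS6KA2, the 3 libraries titled WT PROTAC11 were at 18, 17.1 and 18.5 CPM, and the 3 titled WT PROTAC11 OXPT at 4.98, 5.98 and 3.59 CPM. Those titled WT siHDAC4 UNT were at 21.1, 12.3 and 9.23 CPM, and those titled WT siHDAC4 OXPT at 5.52, 1.76 and 1.97 CPM. The libraries with OXPT in the title were thus all below those without it.

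GNG7 was at 44.2, 39.1 and 52.7 CPM in the libraries titled WT PROTAC11 and 11.3, 8.08 and 14.4 CPM in those titled WT PROTAC11 OXPT. It was at 36.6, 24.5 and 32.5 CPM in those titled WT siHDAC4 UNT and 5.57, 4.21 and 3.59 CPM in those titled WT siHDAC4 OXPT. GNAZ was at 10.8, 10.2 and 14.7 CPM in the libraries titled WT PROTAC11 OXPT and at 4.53, 4.28 and 6.16 CPM in those titled WT siHDAC4 OXPT.

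PADI3 was between 1.5 and 3.56 CPM in the libraries titled WT PROTAC11 and between 1.54 and 6.57 CPM in those titled WT PROTAC11 OXPT. SH3RF2 was at 4.81, 6.57 and 18.7 CPM in the libraries titled WT PROTAC11 and at 6.99, 6.58 and 21.8 CPM in those titled WT PROTAC11 OXPT, with 1 library of each title far above the other 2.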
